A study of Homo sapiens with 12 samples.

Results

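The 44 genes described here are the lysosome and autophagy genes of a list: transcription factors of the MiT/TFE family, lysosomal membrane proteins, hydrolases, lipid handling proteins, subunits of the proton pump and core autophagy genes. The list was chosen with earlier results of these data known, so shares of its members beside those of all genes are a description. The 44 genes were taken by symbol from the 26485 genes of the expression table, and all 44 were found and passed the filter on low values that left 13794 genes to be tested. The libraries came from BT474, an established human cell line derived from a HER2-positive breast tumour and labelled wild type, in which the ERBB2 gene that encodes HER2 is amplified. Lapatinib, which blocks the kinase activity of HER2 and of EGFR, was given at 1 µM, and polyadenylated RNA was sequenced from 4 groups of 3 libraries. Control was the day 0 group, DTP stands for drug-tolerant persisters of day 9, DTEP for drug-tolerant expanded persisters of month 6, and LR for cells with long-term resistance, of month 9. Control carries the same treatment label as the other groups, lapatinib at 1 µM, and was read as untreated from its title. All groups derive from 1 cell line, and the libraries of a group are called technical replicates in one place and parallel plates in another, so p-values measure the spread between libraries and may not include that between independent derivations.

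Lysosomes are acidic organelles in which hydrolases break down proteins, glycans and lipids, and autophagy delivers parts of the cytoplasm to them inside double-membrane vesicles. The V-ATPase pumps the protons that keep the lumen acidic. MiT/TFE factors bind a palindromic DNA element, named CLEAR for coordinated lysosomal expression and regulation, in the promoters of many lysosomal genes, and mTORC1 signalling on the lysosomal surface holds TFEB and TFE3 in the cytoplasm in fed cells. Kinase signalling below HER2 feeds into mTORC1, which is the usual reason to look at these genes when HER2 is inhibited.

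Levels are given as normalised read counts, which are CPM values (reads scaled to one fixed total) of library sizes corrected by a trimmed mean. The libraries held 16383363 to 25030482 assigned reads, and the fewest reads behind any value of a member were 6, for GABARAPL1. DTEP replicate 3 stood apart from its group: over 13794 genes its log2 levels correlated with those of the 3 LR libraries at r of 0.971 to 0.986 and with those of the other DTEP libraries at 0.934 to 0.962, values that share a cell line and a gene set and are given as a description. Counts of members in comparisons that use DTEP are therefore given with and without it, and the members whose calls then change are named. The median SD of the members' log2 levels within a group was 0.0621 in Control and 0.133 in DTP, and wider in the late groups, at 0.241 for DTEP and 0.296 for LR. Of the 8 luminal markers checked for BT474, 7 lay well above a limit of 3 reads in every library, with ERBB2 at 6356 to 6833 in Control and 7917 to 9136 in DTP, and lower in the late groups, at 1244 to 2103 in DTEP and 1555 to 1897 in LR. ESR1, the estrogen receptor and the eighth marker, lay at 149 to 153 in Control and at 0.0553 to 0.211 in LR, where the lowest value is that of 1 read. CDH1, an adhesion protein of epithelia, lay at 1094 to 1146 in Control and 60.6 to 91.2 in LR, and the keratins KRT8, KRT18 and KRT19 had LR values below their Control range. GATA3, a luminal transcription factor, and the epithelial EPCAM lay higher in LR, at 909.8 to 1572 against 183 to 198 and at 224.5 to 275 against 196 to 212. The 4 leukocyte markers summed to at most 0.326 in any library, and CD3E had no read. The 3 fibroblast markers summed to 51.1 to 61.7 in Control and 98.5 to 130.4 in LR, nearly all of it from COL1A1, while DCN and COL3A1 each stayed at or below 0.163. VIM, the one basal or mesenchymal marker with more than traces, lay at 57.6 to 59.4 in Control and 84.3 to 97.9 in DTP, then at 0.112 to 10.7 in DTEP, and had no read in the 3 LR libraries. The part of these shifts in the results below was not tested, and in bulk RNA a change in the mix of cells and a change in RNA per cell cannot be told apart.

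Promoter windows, from 250 bases before to 50 after the transcription start, were given by RefSeq on GRCh38.p14 for 33 of the 44 members. The CLEAR core was searched as TCACGTGA and the shorter E-box inside it as CACGTG. Both read the same on the 2 strands, and every match of the first is also a match of the second. TCACGTGA was present for 6 of the 33 members (18.2%), against 1.18% of the 27305 genes with a window, and CACGTG for 9 (27.3%), against 8.77%. Among 125 genes of 5 further lysosome, autophagy and mTORC1 lists the shares were 8.8% and 21.6%. The element is named for lysosomal genes, so a higher share among members than among all genes follows from the choice of motif. It is not a result. The 6 members were LAMP1, MCOLN1, CLN3, CTSA, GAA and ATP6V0D1. Their sequences are shown because they carry the element through which MiT/TFE factors are known to act, and MCOLN1 and CTSA are among the members that changed most in DTP. Each stretch runs 5′ to 3′ on the gene's own strand from 90 bases before the start, with TCACGTGA in capitals.
LAMP1, chr13:113297149-113297258, plus strand: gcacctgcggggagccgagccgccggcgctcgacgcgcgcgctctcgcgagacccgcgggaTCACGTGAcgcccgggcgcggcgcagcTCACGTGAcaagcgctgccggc
MCOLN1, chr19:7522534-7522643, plus strand: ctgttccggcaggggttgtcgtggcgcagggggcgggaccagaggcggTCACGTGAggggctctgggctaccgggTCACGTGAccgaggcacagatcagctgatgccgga
CLN3, chr16:28492055-28492164, minus strand: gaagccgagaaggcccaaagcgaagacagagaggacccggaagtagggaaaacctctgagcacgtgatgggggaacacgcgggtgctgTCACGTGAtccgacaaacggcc
CTSA, chr20:45891245-45891354, plus strand: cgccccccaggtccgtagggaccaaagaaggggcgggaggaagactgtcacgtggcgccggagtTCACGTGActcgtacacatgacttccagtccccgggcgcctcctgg
GAA, chr17:80101491-80101600, plus strand: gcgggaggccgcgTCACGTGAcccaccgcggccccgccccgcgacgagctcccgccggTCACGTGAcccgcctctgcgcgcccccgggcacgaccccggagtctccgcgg
ATP6V0D1, chr16:67481138-67481247, minus strand: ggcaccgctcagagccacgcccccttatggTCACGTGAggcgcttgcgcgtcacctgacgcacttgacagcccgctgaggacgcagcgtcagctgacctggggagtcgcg
LAMP1, MCOLN1 and GAA each held 2 copies in the window, and in CLN3 and LAMP1 a copy began 2 bases before the start. A match is a description of these letters and does not show that a factor was bound.

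At day 9 most of the members stood above their Control level. Between DTP and Control, 26 of the 44 members were higher (59.1%, against 25.2% of all genes tested) and 4 were lower (9.09%, against 28.8%) at an adjusted p below 0.05 in limma. The median log2 change of the members was 0.55, beside -0.013 over all genes. With an absolute log2 change above 1 as a second condition, 7 members were higher (15.9%, against 9.24% of all genes) and 1 was lower (2.27%, against 15.8%). In 22 members the DTP mean was the highest of the 4 groups, which held for 29.8% of all genes tested, and in 1 member, NPC1, the Control mean was the highest (22.9% of all genes). Leaving out DTP replicate 1 brought the count of lower members from 4 to 2.

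From day 9 to month 6 members moved in both directions, as did the genes tested as a whole. DTEP against DTP had 11 members higher (25%, against 35.7% of all genes) and 19 lower (43.2%, against 32.6%), with a median of -0.19 beside 0.076 over all genes. Past a log2 change of 1, 7 were higher (15.9%, against 22.4%) and 9 lower (20.5%, against 19.5%), shares that lie near the background. Without DTEP replicate 3 the counts were 12 higher (38.2% of all genes) and 19 lower (33.2%), with 7 (22.3%) and 8 (19.1%) past a log2 change of 1, and the call gained was CD63.

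Between month 6 and month 9 few members passed. LR against DTEP had 0 members higher (3.04% of all genes) and 1 lower, GABARAPL1 (4.31% of all genes). The same counts, 0 and 1, were obtained with the condition on size, which 1.45% and 2.5% of all genes met. At an unadjusted p below 0.05 limma had 7 members higher and 2 lower, and after adjustment edgeR had 2 higher and 1 lower and DESeq2 5 higher and 2 lower. Without DTEP replicate 3 the same comparison had 7 members higher (19.3% of all genes) and 5 lower (28.2%), so the count rests on that library. Past a log2 change of 1 it had 1 higher (6.44%), SGSH, and 1 lower (9.7%). The 7 were SGSH, TFEB, GAA, TPP1, GLB1, MANBA and HEXA, and the 5 were GABARAPL1, CTSL, GLA, GUSB and TFE3. Leaving out any 1 of the other 11 libraries took the single lower call away.

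Against Control, members of the late groups differed in both directions. DTEP had 18 members higher (40.9%, against 29.5% of all genes) and 8 lower (18.2%, against 28.7%), with 8 higher (15.1% of all genes) and 4 lower (16.4%) past a log2 change of 1. Without DTEP replicate 3 it had 20 higher (33% of all genes) and 9 lower (30.7%), with 9 (16.3%) and 3 (16.7%) past a log2 change of 1. CD63, ATG5, HEXA (-0.39, adjusted p = 0.014) and ULK1 (-0.45, adjusted p = 0.0436) then passed, and GABARAPL1 no longer did. LR had 18 higher (40.9%, against 30.2%) and 7 lower (15.9%, against 32.6%), with 9 higher (16.9% of all genes) and 4 lower (19.6%) past a log2 change of 1. The median member change was 0.16 in DTEP and 0.23 in LR, beside 0.023 and -0.032 over all genes. The DTP, DTEP and LR comparisons with Control share the 3 Control libraries and are not independent of each other. In the paragraphs that follow, a number in parentheses after a gene said to have risen or fallen is its log2 change in limma, and it passed at an adjusted p below 0.05.

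**Figure D1:**
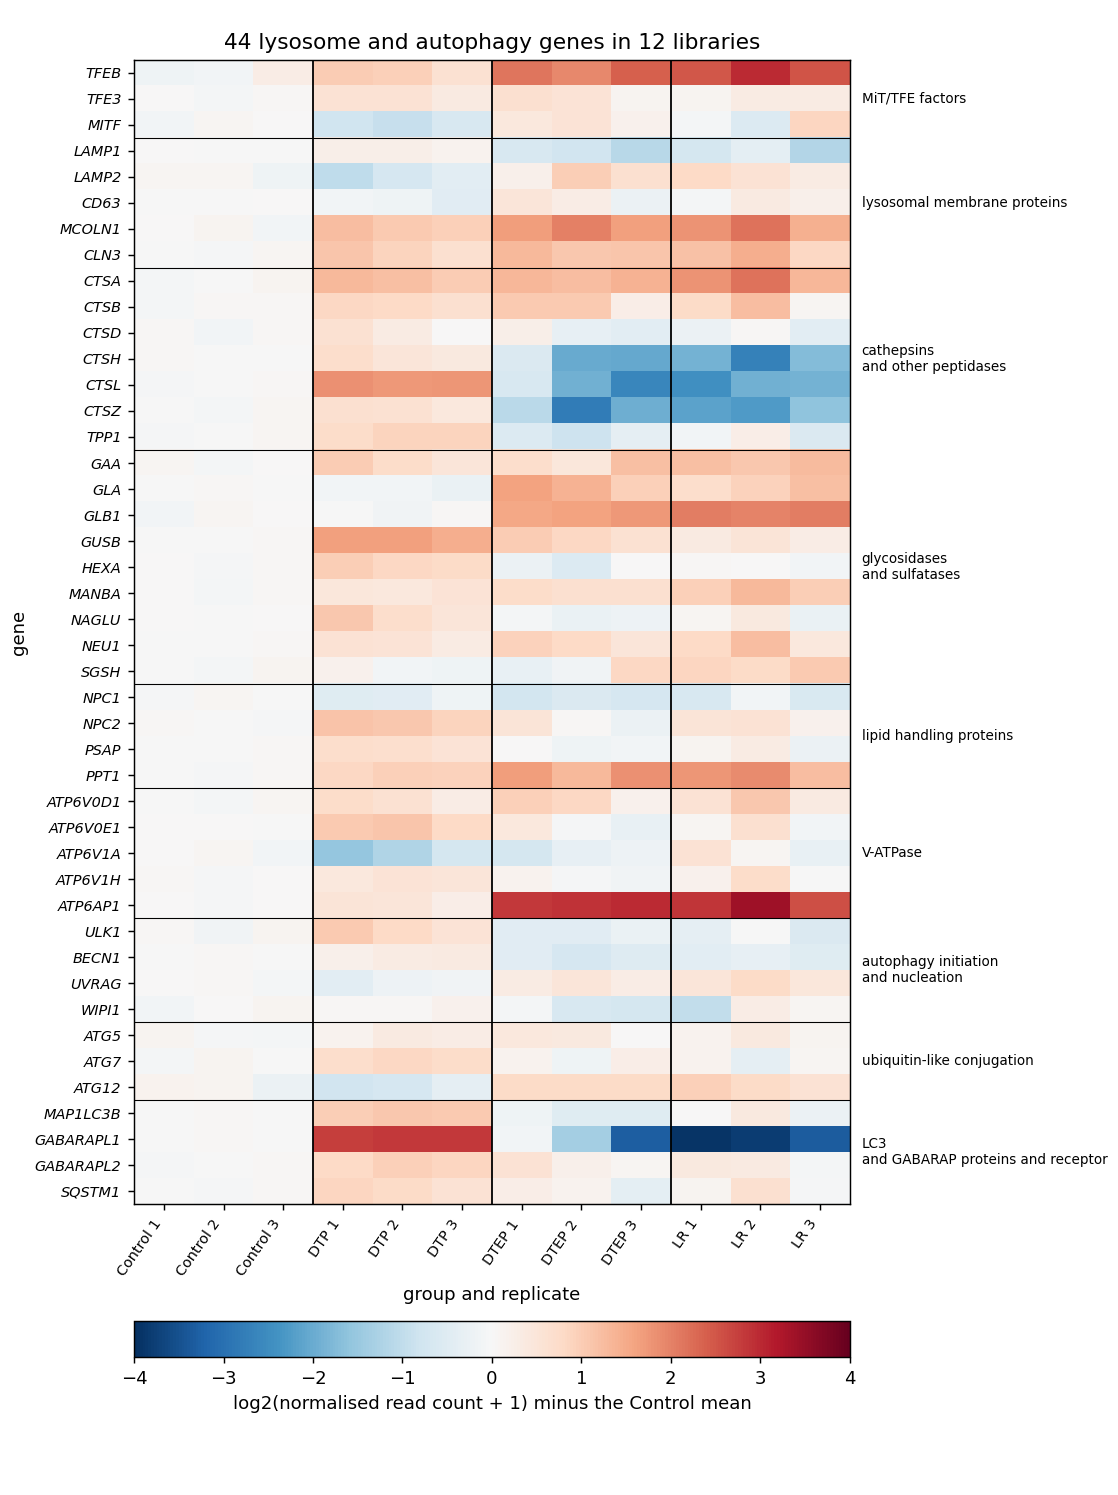
Heatmap of the 44 members (rows, by role) in the 12 libraries (columns), with colour giving log2(normalised read count + 1) minus the mean of the 3 Control libraries. Most rows are red in DTP, and in DTEP and LR the cathepsins CTSH, CTSL and CTSZ and the ATG8 protein GABARAPL1 are blue while ATP6AP1, TFEB and GLB1 are red.

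**Figure D2:**
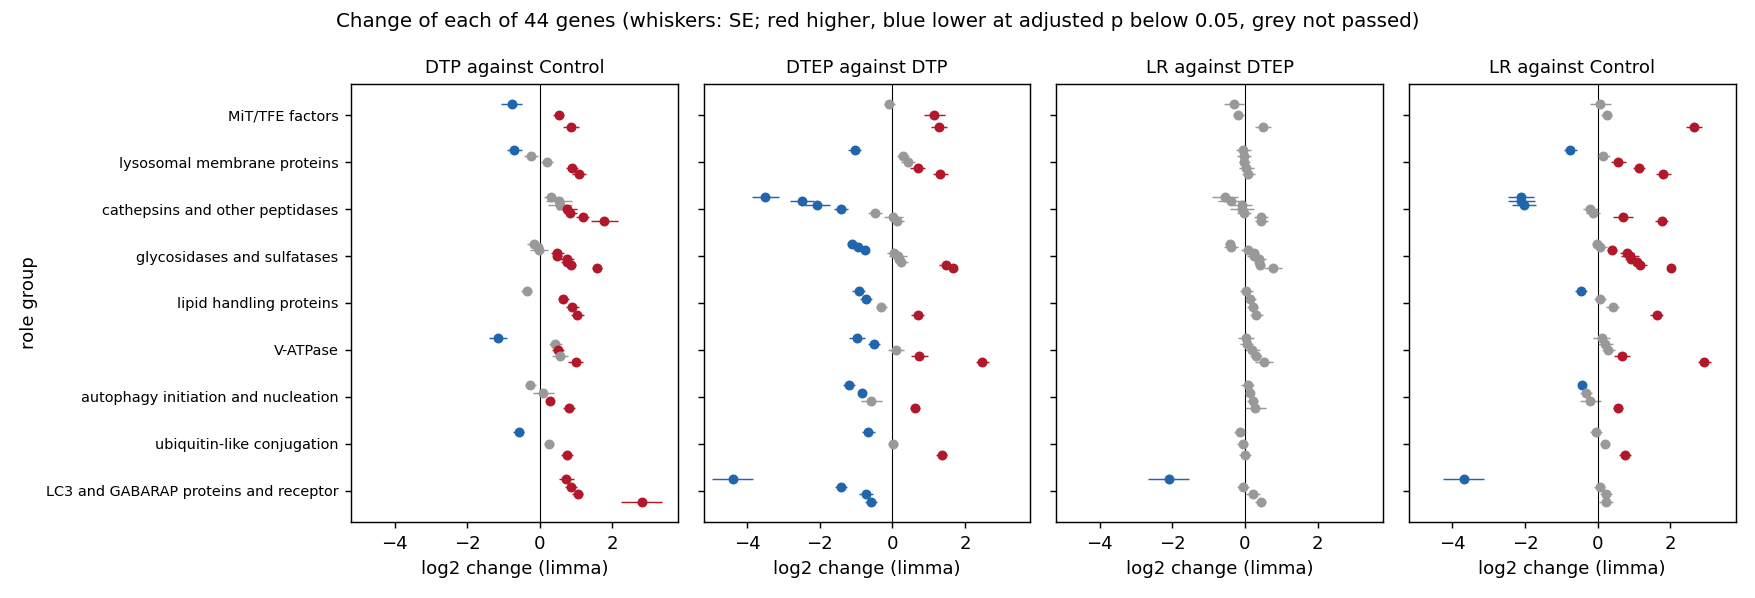
Log2 change of each member in limma (x axis) by role group (y axis) in 4 comparisons, with whiskers for the SE and colour for an adjusted p below 0.05 (red higher, blue lower, grey not passed). In DTP all 4 genes of the LC3 and GABARAP group lie above 0 and pass, in DTEP against DTP all 4 lie below 0 and pass, and in LR against DTEP 43 of 44 genes are grey.

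Among the MiT/TFE factors, TFEB transcripts rose at each step up to month 6. The normalised read counts of TFEB were 1.66, 1.79 and 2.7 in Control, 5.11, 4.89 and 3.57 in DTP, 12.3, 10.3 and 14.9 in DTEP and 15.8, 22.6 and 16.2 in LR. The 4 groups did not overlap. It was higher in DTP than in Control, with a log2 change of 0.86 ± 0.22 (SE, adjusted p = 0.00552). The rise went on in DTEP, by a log2 change of 1.29 ± 0.22 (SE, adjusted p = 0.000212). LR stood 8.89-fold above Control by the ratio of means, at a log2 change of 2.65 ± 0.22 (SE, adjusted p = 6.2e-07). The step from DTEP to LR, a log2 change of 0.50, did not pass with all libraries (adjusted p = 0.125) and passed without DTEP replicate 3 (0.63, adjusted p = 0.0354). Per length of transcript it was the lowest of the 3 in Control, with a mean of 0.879 normalised read counts per kb of the MANE Select transcript, against 17.2 for TFE3 and 1.54 for MITF. By LR the means per kb were 7.82, 20.6 and 1.79.

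TFE3, a paralogue that responds to the same nutrient signals, had smaller log2 changes. TFE3 had normalised read counts of 57.9, 53.4 and 59 in Control, 85.9, 85.8 and 73.5 in DTP, 88.1, 83.4 and 61.5 in DTEP and 61.1, 71 and 70.9 in LR. It rose in DTP, by a log2 change of 0.52 ± 0.15 (SE, adjusted p = 0.0115), and all DTP values lay above all Control values. In DTEP it was still above Control by a log2 change of 0.43 ± 0.15 (SE, adjusted p = 0.0257), a call that was lost without any one of the 3 Control libraries, DTEP replicate 1 or DTEP replicate 2 (adjusted p = 0.0507 to 0.0901). DTEP against DTP gave -0.086 ± 0.15, and 0.072 without DTEP replicate 3, with overlapping groups. LR against Control gave 0.25 ± 0.15 (adjusted p = 0.165).

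MITF, best known as the master regulator of melanocytes, went the other way at day 9. For MITF the 3 libraries of a group held 6.85, 7.77 and 7.55 in Control, 3.86, 3.46 and 4.43 in DTP, 10.1, 11.2 and 8.48 in DTEP and 7.01, 4.7 and 14.1 in LR. All 3 DTP values lay below all others. The DTP against Control comparison gave a log2 change of -0.77 ± 0.29 (SE, adjusted p = 0.0376). That call was narrow: it was lost when any 1 Control or DTP library was left out (adjusted p = 0.052 to 0.112), without the filter on low values (0.0634) and with library totals as the scale (0.0654). From DTP to DTEP the gene rose by a log2 change of 1.15 ± 0.29 (SE, adjusted p = 0.00341). In LR the libraries ranged from 4.7 to 14.1, and LR against Control was 0.075 ± 0.29, or -0.31 without LR replicate 3.

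**Figure D3:**
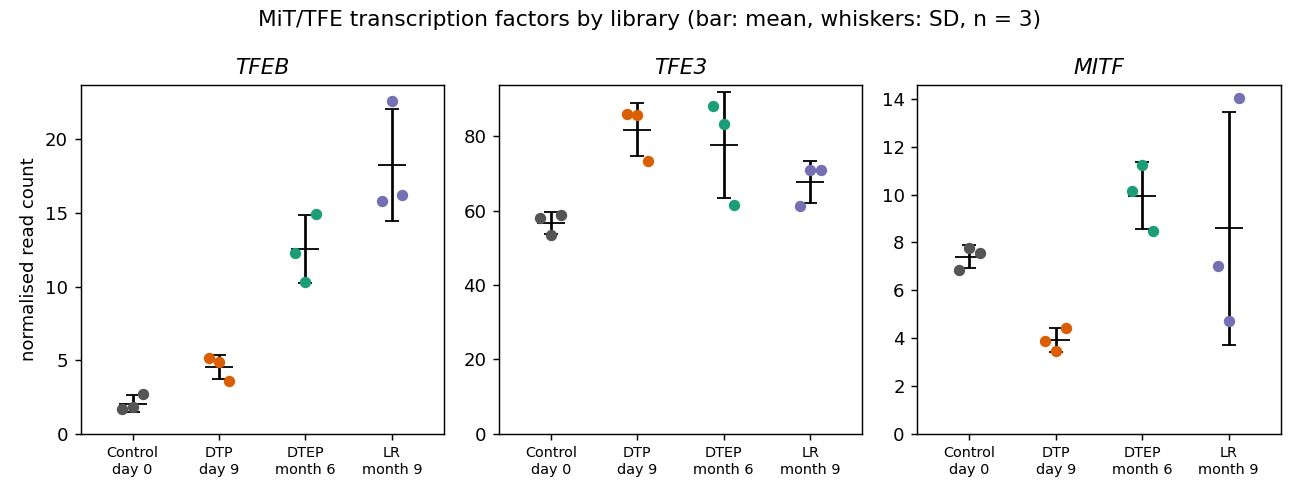
Normalised read counts of TFEB, TFE3 and MITF (y axes from 0) in each library, by group (x axis), with a bar for the mean and whiskers for the SD of 3 libraries. TFEB means climb from 2.05 in Control to 18.2 in LR, TFE3 is highest in DTP at 81.7, and MITF is lowest in DTP at 3.92.

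Of the 5 lysosomal membrane proteins, MCOLN1, the calcium release channel of the lysosome, rose at both steps up to month 6. Levels of MCOLN1, in normalised read counts, were 6.3, 6.85 and 5.73 in Control, 16.1, 14.2 and 13 in DTP, 22, 28.4 and 21.7 in DTEP and 24.5, 32 and 18.7 in LR. Control, DTP and DTEP were separate, and LR overlapped with DTEP. Between DTP and Control limma gave a log2 change of 1.08 ± 0.20 (SE, adjusted p = 0.000937). It rose again in DTEP, by a log2 change of 0.69 ± 0.20 (SE, adjusted p = 0.00937), and LR lay 3.98-fold above Control at a log2 change of 1.81 ± 0.20 (SE, adjusted p = 9.6e-06). CLN3, a multi-pass membrane protein lost in juvenile Batten disease, rose in DTP (0.89) and in LR (1.15) against Control. LAMP1 and LAMP2, the heavily glycosylated proteins that line the lysosomal membrane, moved in opposite directions. LAMP1 did not pass in DTP (0.20, adjusted p = 0.371) and fell from DTP to DTEP (-1.04), and LR was below Control (-0.76). LAMP2 fell in DTP (-0.71), rose in DTEP against DTP (1.32) and was above Control in LR (0.57). CD63, a tetraspanin of late endosomes, did not pass in any of the 5 comparisons with all libraries, with log2 changes of -0.25 to 0.43. Without DTEP replicate 3 it passed in DTEP against DTP (0.64, adjusted p = 0.00222) and against Control (0.39, adjusted p = 0.0363). MCOLN1, CLN3 and LAMP1 all hold TCACGTGA in the windows printed above, and LAMP1 fell late.

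Of the 7 peptidases, 4 rose in DTP (25.2% of all genes), and in DTEP 4 fell against DTP (32.6% of all genes). CTSL, a cysteine endopeptidase, rose and fell most. The normalised read counts of CTSL were 29.9, 30.5 and 32.2 in Control, 112, 105 and 107 in DTP, 19.5, 7.41 and 4.21 in DTEP and 4.77, 7.36 and 7.56 in LR. DTP lay above every other library, and DTEP replicate 1 lay between Control and the remaining late libraries. It was higher in DTP than in Control, with a log2 change of 1.77 ± 0.37 (SE, adjusted p = 0.00185). From DTP to DTEP the gene fell by 3.50 ± 0.37 on the log2 scale (SE, adjusted p = 5.3e-06), and without DTEP replicate 3 it fell by 3.05. LR lay 4.7-fold below Control, at a log2 change of -2.10 ± 0.37 (SE, adjusted p = 0.000386). The LR and DTEP libraries overlapped.

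CTSZ, a carboxypeptidase, and CTSH, an aminopeptidase, shared the late fall without a passed rise in DTP. CTSZ had normalised read counts of 58, 56.2 and 62.9 in Control, 92.5, 91.1 and 79.1 in DTP, 27.5, 7.7 and 14.5 in DTEP and 12.5, 11.3 and 18.6 in LR. For CTSH the 3 libraries of a group held 28.1, 26.9 and 27.2 in Control, 45.2, 39 and 36.3 in DTP, 17.8, 6.01 and 5.84 in DTEP and 6.72, 3.32 and 7.61 in LR. In both genes every DTEP and LR value lay below every Control value. CTSZ had a log2 change of -2.50 ± 0.33 (SE, adjusted p = 3.3e-05) from DTP to DTEP and a log2 change of -2.01 ± 0.33 (SE, adjusted p = 0.000219) in LR against Control. CTSH had a log2 change of -2.08 ± 0.36 (SE, adjusted p = 0.000259) and a log2 change of -2.11 ± 0.36 (SE, adjusted p = 0.000286) in the same comparisons. In DTP against Control their changes of 0.56 and 0.53 did not pass (adjusted p = 0.175 and 0.234). The SEs of 0.33 and 0.36 in that test hold the spread of all groups, and DTEP ran from 7.7 to 27.5 and from 5.84 to 17.8. A rise in DTP is therefore not excluded for either gene. No DTP value of either overlapped with Control, a common trait: of 13794 genes tested, 5207 lay wholly higher in DTP and 5457 wholly lower.

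CTSA, the protective protein that binds and stabilises β-galactosidase and neuraminidase, rose early and stayed high. Levels of CTSA, in normalised read counts, were 58.7, 60.3 and 65.7 in Control, 153, 144 and 125 in DTP, 157, 145 and 163 in DTEP and 218, 281 and 156 in LR. Every later value lay above every Control value, and the LR libraries spread from 156 to 281. The DTP against Control comparison gave a log2 change of 1.18 ± 0.18 (SE, adjusted p = 0.000231). LR against Control was a log2 change of 1.77 ± 0.18 (SE, adjusted p = 4.2e-06). CTSB, a cysteine peptidase, rose in DTP (0.75), DTEP (0.78) and LR (0.70) against Control. TPP1, a tripeptidyl peptidase, rose in DTP (0.84) and fell in DTEP against DTP (-1.42). CTSD, the main aspartic protease of lysosomes, did not pass in any comparison, with changes of -0.48 to 0.31.

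Of the 9 glycosidases and sulfatases, 6 rose in DTP (25.2% of all genes) and 0 fell (28.8%). In LR 7 stood above Control (30.2% of all genes) and 0 below (32.6%). GUSB, β-glucuronidase, had its peak in DTP. The normalised read counts of GUSB were 59.5, 59.3 and 63.1 in Control, 193, 190.4 and 166 in DTP, 123, 108 and 93.1 in DTEP and 78, 87.6 and 74.9 in LR. DTP stood above all other groups, and the 4 groups did not overlap. Between DTP and Control limma gave a log2 change of 1.58 ± 0.13 (SE, adjusted p = 2.7e-06). From DTP to DTEP it fell by 0.77 ± 0.13 on the log2 scale (SE, adjusted p = 0.000209), and LR remained above Control by 0.39 (adjusted p = 0.018). GUSB has partial pseudogene copies with which reads may be shared.

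GLB1, the acid β-galactosidase, did not pass at day 9 and then rose. GLB1 had normalised read counts of 34.7, 39.1 and 37.9 in Control, 36.8, 33.8 and 38.2 in DTP, 111, 115 and 125 in DTEP and 156, 149.9 and 156 in LR. Control and DTP overlapped, and the lowest DTEP value was 111 against a highest DTP value of 38.2. DTEP against DTP was a log2 change of 1.66 ± 0.11 (SE, adjusted p = 1.3e-07), and LR against Control a log2 change of 2.02 ± 0.11 (SE, adjusted p = 2.3e-08), a ratio of means of 4.14. The DTP change was -0.038 ± 0.11 (adjusted p = 0.8). TMPPE, whose span overlaps with that of GLB1, had means of at most 4.89.

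GLA, α-galactosidase A, also did not pass in DTP and then rose in DTEP. For GLA the 3 libraries of a group held 15.4, 15.9 and 15.2 in Control, 14.4, 14.2 and 12.7 in DTP, 49.6, 42.6 and 30.8 in DTEP and 25.8, 30.1 and 36.7 in LR. All DTEP and LR values lay above all Control and DTP values. DTEP against DTP was a log2 change of 1.49 ± 0.19 (SE, adjusted p = 2.3e-05), and LR against Control a log2 change of 0.93 ± 0.19 (SE, adjusted p = 0.000998). GLA, LAMP2, TFE3 and ATP6AP1 are the 4 members on the X chromosome.

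Of the 6 other enzymes of this group, 5 rose in DTP (25.2% of all genes). HEXA, the α subunit of β-hexosaminidase, and NAGLU, an enzyme of heparan sulfate breakdown, rose in DTP (0.86 and 0.75) and fell in DTEP against DTP (-1.11 and -0.94), and neither passed in LR against Control. GAA, acid α-glucosidase, MANBA, β-mannosidase, and NEU1, a sialidase, rose in DTP (0.76, 0.49 and 0.48) and stood above Control in LR (1.17, 1.08 and 0.82). SGSH, a sulfamidase, passed only in LR against Control (0.90, adjusted p = 0.00715) among the 5 comparisons, and its DTEP replicate 3 value of 49.8 lay with the LR values of 48.4 to 58.2 while the other DTEP values were 22.3 and 25.1.

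The 4 lipid handling genes did not share a direction. NPC2, which carries cholesterol inside the lysosome to NPC1, rose in DTP. Levels of NPC2, in normalised read counts, were 59.1, 57 and 56 in Control, 127, 123 and 106 in DTP, 81.6, 59.1 and 48.9 in DTEP and 82.4, 85.9 and 64.4 in LR. DTP lay above all other libraries. It was higher in DTP than in Control, with a log2 change of 1.03 ± 0.18 (SE, adjusted p = 0.00053). From DTP to DTEP this gene fell by 0.93 ± 0.18 on the log2 scale (SE, adjusted p = 0.000607), and LR against Control did not pass with all libraries (0.42, adjusted p = 0.059). PPT1, a palmitoyl-protein thioesterase that removes fatty acids from proteins, rose and stayed high. The normalised read counts of PPT1 were 192, 189 and 200.1 in Control, 341, 374 and 370.4 in DTP, 619, 477 and 686 in DTEP and 666, 721 and 457 in LR. DTP and DTEP did not overlap, and all LR values lay above the highest DTP value. It rose in DTP (0.90), and DTEP against Control was a log2 change of 1.60 ± 0.18 (SE, adjusted p = 1.2e-05). CAP1, whose span overlaps with that of PPT1, had means between 244 and 307. PSAP, the precursor of the saposins, rose in DTP (0.65) and fell in DTEP (-0.73). It had the highest Control level per kb of the 44, at 310.1. NPC1, the cholesterol exporter of the lysosomal membrane, fell in DTEP (-0.67) and LR (-0.46) against Control.

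Subunits of the V-ATPase did not move together. ATP6V1A, the catalytic subunit of the cytosolic ring, fell in DTP. ATP6V1A had normalised read counts of 235, 243 and 214 in Control, 77.9, 98.6 and 142 in DTP, 142, 183 and 198 in DTEP and 343, 242 and 187 in LR. All DTP values lay at or below 142 and all Control values at or above 214. The DTP against Control comparison gave a log2 change of -1.16 ± 0.24 (SE, adjusted p = 0.00181). It rose in DTEP against DTP by 0.74 (adjusted p = 0.0164). Of the others, ATP6V0E1, a small membrane subunit, rose in DTP (0.99) and fell in DTEP against DTP (-0.98), and ATP6V1H, a regulatory subunit, rose (0.49) and fell (-0.51) likewise. ATP6V0D1, which joins the membrane and cytosolic parts, did not pass in DTP with all libraries (0.54, adjusted p = 0.0552) and was above Control in DTEP (0.65) and LR (0.68).

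ATP6AP1, an accessory subunit needed for assembly of the pump, gave the largest rise of any member in the late groups on the log2(value + 1) scale, while by the ratio of means in LR against Control TFEB (8.89) stood above it (7.96). For ATP6AP1 the 3 libraries of a group held 133, 126 and 134 in Control, 188, 185 and 158 in DTP, 937, 982 and 1041 in DTEP and 953, 1386 and 792 in LR. The lowest late value, 792, was over the highest value of Control and DTP, 188. DTEP against DTP was a log2 change of 2.47 ± 0.18 (SE, adjusted p = 2.5e-07), and DTEP against Control a log2 change of 2.90 ± 0.18 (SE, adjusted p = 7.5e-08), a ratio of means of 7.53. In DTP the change of 0.43 did not pass with all libraries (adjusted p = 0.0608). Its mean of 480 per kb in DTEP and 508 in LR was the highest of the 44 members in those groups.

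The neighbours of ATP6AP1 on the X chromosome were looked at after its values were seen. It lies at chrX:154428677-154436516 (RefSeq, GRCh38.p14), and 14 other genes that were tested lie within 100 kb. Spans of some of them overlap, and SNORA70 lies inside RPL10, so the 14 are not separate measures. In DTP against Control 8 were higher (25.2% of all genes) and 2 lower (28.8%). All 14 were higher in DTEP than in Control (29.5% of all genes), with log2 changes of 0.66 to 3.72 and a median of 2.45. In LR, 13 of the 14 rose against Control (1.55 to 2.90), which held for 30.2% of all genes, and FLNA did not pass (0.11, adjusted p = 0.599). RPL10, a ribosomal protein gene, had means of 178 in Control and 259 in DTP, then 1285 in DTEP and 795 in LR. Over the whole X chromosome 33.1% of 456 genes were higher in DTEP than in Control and 33.6% were lower, with a median of -0.0303. For LR against Control these shares were 33.6% and 34.4%. The part of the neighbourhood in the change of ATP6AP1 was not tested.

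**Figure D4:**
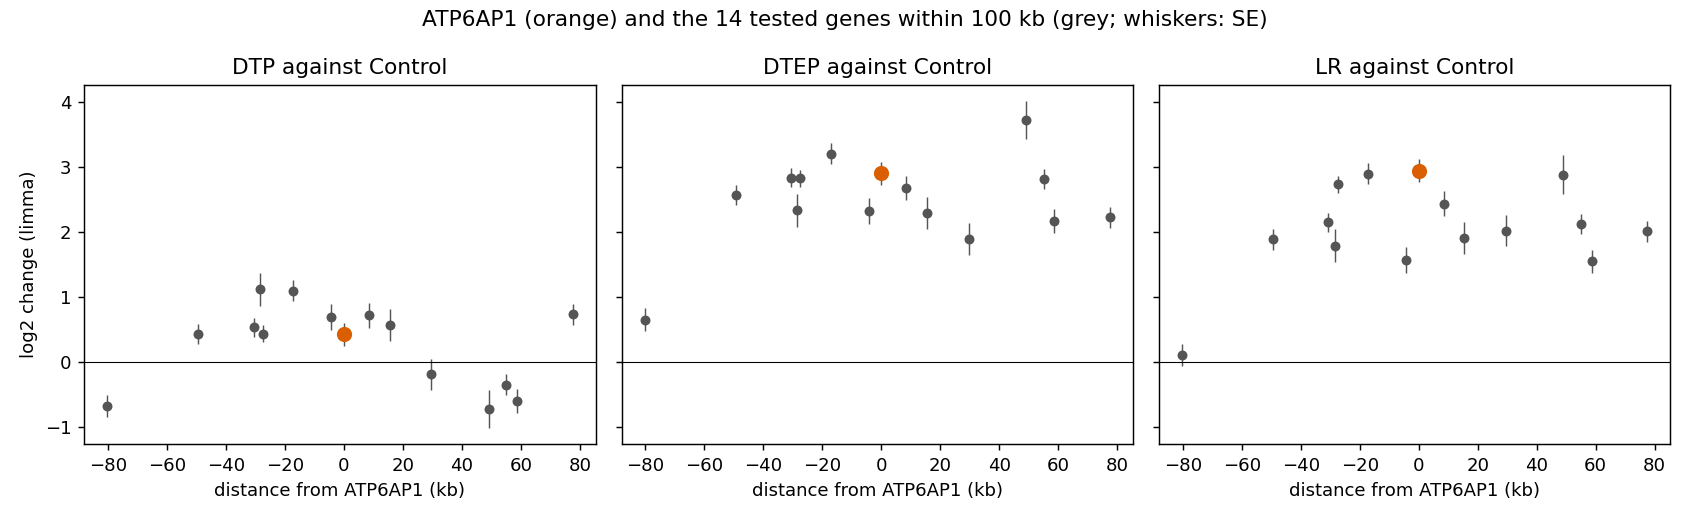
Log2 change in limma (y axis, whiskers for the SE) of ATP6AP1 (orange) and the 14 tested genes within 100 kb (grey) against the distance from ATP6AP1 in kb (x axis), in DTP, DTEP and LR against Control. In DTEP ATP6AP1, at 2.90, and all 14 neighbours lie above 0.

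Of the 4 genes of autophagy initiation and nucleation, 2 rose in DTP (25.2% of all genes) and 2 fell in DTEP against DTP (32.6%). So few genes cannot be told from these shares. ULK1, the kinase that starts autophagosome formation, rose in DTP (0.79) and fell in DTEP against DTP (-1.18). BECN1, a subunit of the lipid kinase complex that acts next, rose in DTP by 0.29 and fell by 0.84 in DTEP against DTP, and it was below Control in LR (-0.42). CNTD1, whose span overlaps with that of BECN1, had means of 2.9 in DTP and 18.7 in DTEP. UVRAG, a partner of BECN1, did not pass in DTP (-0.26) and was above Control in DTEP (0.37) and LR (0.57). WIPI1, which binds the lipid this complex makes, did not pass in any comparison, with changes of -0.58 to 0.28. Its span overlaps with those of ARSG and PRKAR1A, whose means were 13.7 and 313 in Control and 104 and 788 in LR.

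The 3 genes of the ubiquitin-like conjugation step each took their own course. ATG7, the activating enzyme, rose in DTP (0.75) and fell in DTEP against DTP (-0.66). VGLL4, whose span overlaps with that of ATG7, had means of 82.6 in Control, 128 in DTP and 81 in DTEP. ATG12, the modifier that is joined to ATG5, fell in DTP (-0.59), rose in DTEP against DTP (1.35) and was above Control in LR (0.76). ATG5 did not pass in any of the 5 comparisons with all libraries, with changes of -0.064 to 0.27, and passed in DTEP against Control without DTEP replicate 3 (0.40, adjusted p = 0.0164).

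The LC3 and GABARAP proteins are attached to the autophagosome membrane, and the receptor SQSTM1 (p62) links ubiquitinated cargo to them. All 4 genes of this group rose in DTP (25.2% of all genes) and all 4 fell in DTEP against DTP (32.6%). GABARAPL1 had the largest change of the 44 members in both. Levels of GABARAPL1, in normalised read counts, were 18.1, 18.7 and 17.8 in Control, 130.3, 136 and 134 in DTP, 16.8, 6.47 and 0.954 in DTEP and 0.253, 0.387 and 0.921 in LR. DTP lay above all other libraries and its 3 values were close, while those of DTEP ran from 0.954 to 16.8 and all lay below Control. Between DTP and Control limma gave a log2 change of 2.81 ± 0.56 (SE, adjusted p = 0.00138). That SE also holds the spread of the late groups, and with only the 6 libraries compared the adjusted p in limma was 7.29e-08. The ratio of the DTP to the Control mean was 7.33. From DTP to DTEP its level fell by 4.40 ± 0.56 on the log2 scale (SE, adjusted p = 2.4e-05), and without DTEP replicate 3 it fell by 3.54. LR lay 35-fold below Control by the ratio of means, at a log2 change of -3.68 ± 0.56 (SE, adjusted p = 0.000121).

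The later GABARAPL1 calls depended on which libraries were used. LR against DTEP was a log2 change of -2.09 ± 0.56 (SE, adjusted p = 0.0464), and the adjusted p was 0.29 with only the 6 libraries compared. That call was lost without any 1 of the other 11 libraries (adjusted p = 0.0526 to 0.153), with the lowest change, -1.35, without DTEP replicate 1, and without DTEP replicate 3 the change was -2.95 (adjusted p = 5.1e-05). DTEP against Control was a log2 change of -1.59 ± 0.56 (SE, adjusted p = 0.0291), which was lost without any 1 Control library (adjusted p = 0.0634 to 0.0685) or without DTEP replicate 3 (-0.73, adjusted p = 0.0513), and in edgeR (0.118) and DESeq2 (0.0813). It was also lost with only the 6 libraries compared (adjusted p = 0.104).

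MAP1LC3B, the LC3 form most used to follow autophagosomes, rose and fell by less. The normalised read counts of MAP1LC3B were 59.8, 62.1 and 60.0 in Control, 121, 130.4 and 127 in DTP, 53.1, 43.5 and 43.4 in DTEP and 61.7, 80.0 and 51 in LR. DTP lay above all other libraries, and LR overlapped with Control and DTEP. It was higher in DTP than in Control, with a log2 change of 1.04 ± 0.16 (SE, adjusted p = 0.000193). Toward DTEP it fell by 1.42 ± 0.16 on the log2 scale (SE, adjusted p = 6.8e-06), and LR against Control did not pass (0.059 ± 0.16). Reads of this gene may be shared with its near-identical copy MAP1LC3B2. GABARAPL2 rose in DTP (0.87) and fell in DTEP (-0.59), and SQSTM1 rose (0.73) and fell (-0.72) likewise. None of the other 3 genes of this group passed in LR against DTEP or LR against Control. The spans of SQSTM1 and MGAT4B overlap, and the mean of MGAT4B was 132 in Control and 182 in DTP. The spans of 12 members overlap with that of another gene of the table, and how reads in such stretches were assigned was not tested.

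**Figure D5:**
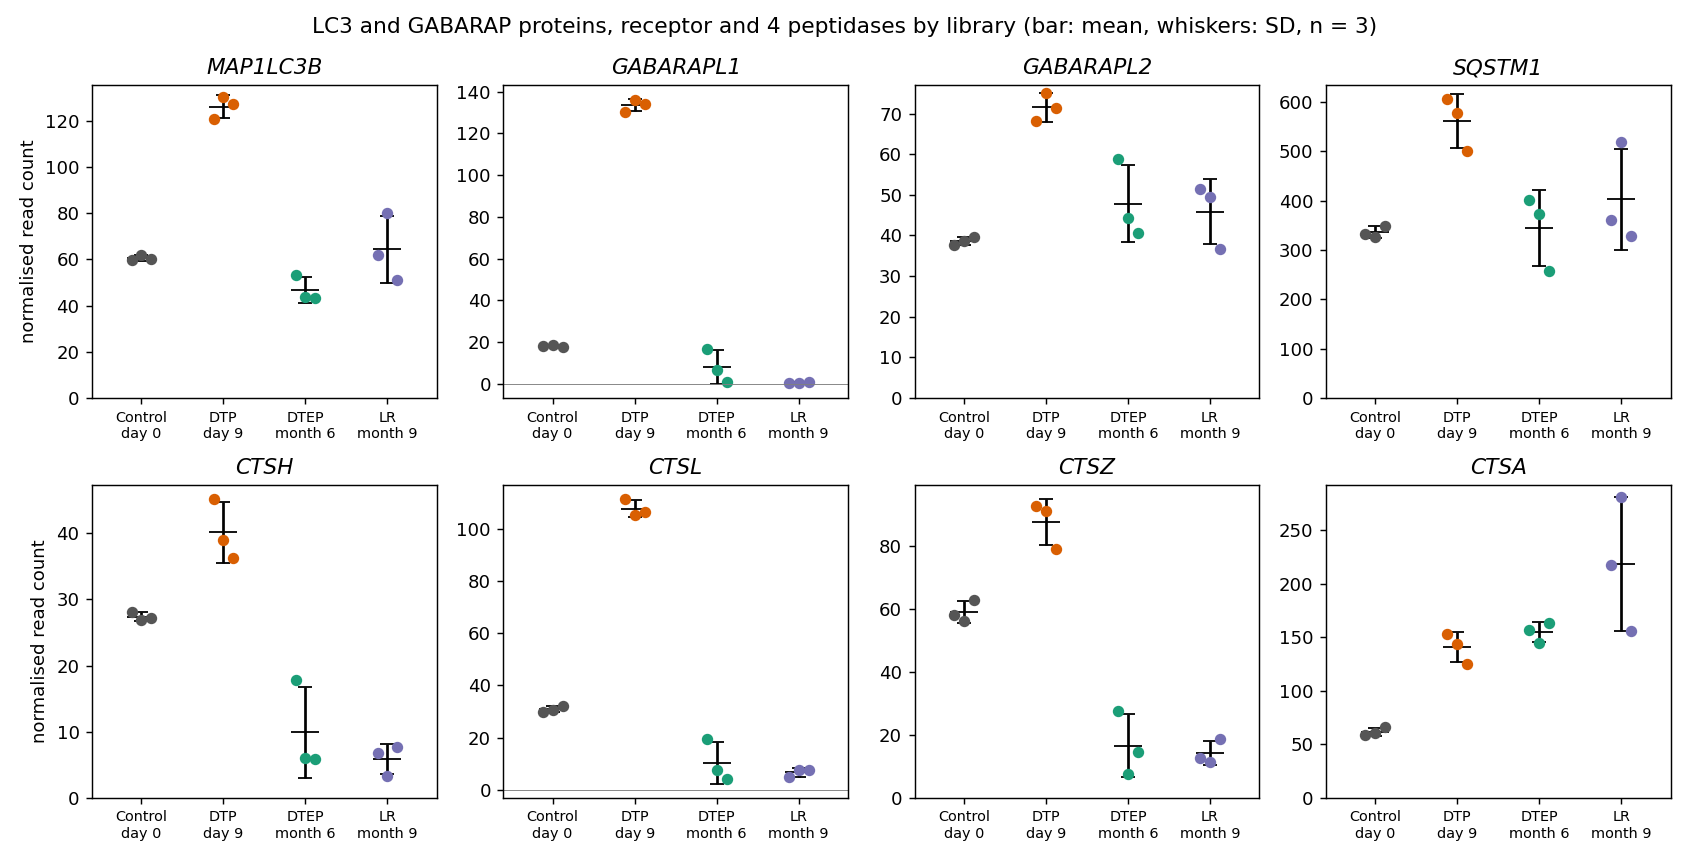
Normalised read counts of the 3 LC3 and GABARAP genes, SQSTM1 and 4 peptidases in each library, by group (x axis), with a bar for the mean and whiskers for the SD of 3 libraries. GABARAPL1 climbs from 18.2 in Control to 133 in DTP and lies at 0.52 in LR, CTSL, CTSH and CTSZ end below Control, and CTSA ends above it.

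The 6 members with TCACGTGA in their windows were set beside the 27 members whose windows lack it, as a description. In DTP against Control the 6 had a median log2 change of 0.82 with 4 higher and 0 lower, and the 27 had 0.53 with 15 higher and 2 lower. In LR against Control the 6 had 1.16 with 5 higher and 1 lower, LAMP1, and the 27 had 0.16 with 8 higher and 6 lower. From DTP to DTEP the 6 had a median of 0.13 with 1 higher and 1 lower, and the 27 had -0.58 with 7 higher and 13 lower. Among the 11 members without a window, 7 were higher and 2 lower in DTP. Their counts were 3 and 5 from DTP to DTEP, then 5 and 0 in LR against Control. Of all genes, 25.2% were higher and 28.8% lower in DTP. The shares were 35.7% and 32.6% from DTP to DTEP, then 30.2% and 32.6% in LR against Control. GABARAPL1, CTSL and GUSB, the 3 members that rose most in DTP, had no TCACGTGA in their windows, which says only that these letters are not there.

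Other genes of the same pathways were taken from 5 further lists. They are read beside the shares of all genes, which were 25.2% higher and 28.8% lower in DTP and 30.2% and 32.6% in LR, against Control. Of 34 other lysosomal enzymes tested, 14 were higher (41.2%) and 6 lower (17.6%) in DTP, with a median log2 change of 0.27, and 18 higher (52.9%) and 8 lower (23.5%) in LR, with a median of 0.53. CTSF, a cysteine cathepsin, had means of 4.18 in Control and 22.5 in DTP, then 40.7 in DTEP and 46.2 in LR, and rose in LR against Control by 3.15 ± 0.29. SIAE, a sialic acid esterase, fell from 26.1 in Control to 2.44 in LR (-3.14 ± 0.39). Of 23 other lysosomal membrane and sorting proteins, 7 were higher (30.4%) and 8 lower (34.8%) in DTP, with a median of -0.11, and 5 higher (21.7%) and 4 lower (17.4%) in LR, with a median of 0.050. GPNMB, a glycoprotein of lysosomes and melanosomes, had means of 80.9 in Control and 122 in DTP, then 21.1 in DTEP and 0.185 in LR (LR against Control, -6.12 ± 0.66).

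Of 17 other V-ATPase subunits, 4 were higher and 4 lower in DTP (23.5% each, median 0.26), and 7 higher and 7 lower in LR (41.2% each, median 0.23). ATP6V0A4 and ATP6V1B1, subunits of the pump of acid-secreting cells, had Control means of 35.1 and 14.2. In LR the first had no read in any library, which allows up to 0.127 to 0.166 normalised read counts by library for a limit of 3 reads, and the second a mean of 0.0161. ATP6V0B, a subunit of the proton-carrying ring, rose in DTEP against Control (2.27 ± 0.22). Of 45 other autophagy genes, 12 were higher (26.7%) and 4 lower (8.89%) in DTP, with a median of 0.085. In DTEP against DTP 6 were higher (13.3%, against 35.7% of all genes) and 22 lower (48.9%, against 32.6%), with a median of -0.30. In LR against Control 11 were higher (24.4%, against 30.2% of all genes) and 12 lower (26.7%, against 32.6%), with a median of 0.049. MAP1LC3A, a close relative of the member MAP1LC3B, had means of 33.4 in Control and 79.4 in DTP. It then fell to 4.21 in DTEP (DTEP against DTP, -4.40 ± 0.54), with values of 9.52, 2.84 and 0.281 in its 3 libraries. In LR its values were 0.0422, 0 and 0 (LR against Control, -5.09 ± 0.54). OPTN, an autophagy receptor, rose in DTP (1.63 ± 0.39) and fell in DTEP against DTP (-2.50 ± 0.39). Of 29 regulators of mTORC1 and MiT/TFE factors, 10 were higher (34.5%) and 4 lower (13.8%) in DTP, with a median of 0.31, and 13 higher (44.8%) and 5 lower (17.2%) in LR, with a median of 0.37. FNIP2, a partner of folliculin, fell in DTP (-2.77 ± 0.41) and rose in LR against DTEP (1.90 ± 0.41), and LAMTOR1, a subunit of the Ragulator complex that anchors mTORC1 regulators to the lysosome, fell in DTEP against DTP (-1.62 ± 0.25).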

How the data were processed

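Total RNA of BT474 cells was made into stranded mRNA libraries (TruSeq), and the authors aligned the reads to hg38 and counted them over RefSeq genes with Rsubread. The default counting of that package ignores strand, so overlapping genes can share or lose reads. The deposited values are a signal per gene and library. Divided by the lowest positive value in the same library, each of the 199680 positive values (100%) gave a whole number within 1.2e-09, so whole reads were recovered, and the scale equalled CPM with a trimmed-mean (TMM) library size from edgeR 4.0.16. The unit is called normalised read count.

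The 44 members, the lists and the motifs were chosen with earlier results of these data known. Groups and replicate numbers came from the sample labels. limma 3.58.1 (R 4.3.3) was fitted to log2(value + 1) of all 12 libraries, with a variance trend, two-sided, for the 13794 genes that reached a value of 1 in 3 or more libraries. P-values were adjusted by Benjamini-Hochberg over all of these genes in each of 5 comparisons, and adding 1 understates the change of low genes. All groups share a single spread estimate per gene, so an SE or p-value does not measure the spread of the compared groups alone. The wider spread of the late groups enters DTP against Control too. Each named fold is a ratio of group means. On simulated data of the DTP against Control comparison (13405 genes tested), limma recovered 46 of 49 genes raised 2-fold and made 6 false calls. The simulation gave every group the same dispersion and changed few genes, in DTP only. In the data the median SD of log2 levels over all genes tested ran from 0.0743 in Control to 0.327 in DTEP. The simulation therefore checks the code and not the error rate of these calls. Members past an adjusted p of 0.05 whose log2 change exceeded 1 in size were described in full, up to 8 a comparison by size, along with TFEB, TFE3 and MITF, and the others are named to account for every member. Genes of the other lists were named in the order of their largest log2 change in any comparison, up to 3 a list. Alternatives were another pseudocount (0.1 or 0.5), filter, scaling, moderation or tool (edgeR or DESeq2 1.42.0 on the recovered reads), a replicate block, fits of 6 libraries and leaving out each library. A single read was worth 0.0412 to 0.0576 normalised read counts, and limits of 3 reads cover counting error only. No 2 libraries of a group were near-identical (smallest chi-square per gene 1.71).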

Additional observations from a re-analysis of the deposited data

How the results depend on the processing

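Counts of members at an adjusted p below 0.05 stayed within 1.5 times the value given for DTP against Control (26 higher), DTEP against DTP, DTEP against Control and LR against Control under every alternative run, except that leaving out DTP replicate 1 gave 2 lower members in DTP. With only the 6 libraries compared, DTP against Control had 32 higher and 6 lower members. Leaving out 1 library gave 22 to 28 higher and 2 to 5 lower members in DTP against Control, 10 to 12 and 18 to 21 in DTEP against DTP, 13 to 20 and 6 to 10 in DTEP against Control, 14 to 20 and 6 to 8 in LR against Control, and 0 to 7 and 0 to 5 in LR against DTEP. LR against DTEP was the least stable: its 0 higher members became 1 with a pseudocount of 0.1 or 0.5 or with median-of-ratios scaling, 2 in edgeR and 5 in DESeq2, and its 1 lower member, GABARAPL1, became 0 without the filter on low values or with only the 6 libraries compared, and 2 in DESeq2. The cause was not tested.

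Replicate numbers did not pair the libraries: deviations of libraries with the same number correlated at a median of -0.04 over all genes (-0.44 to 0.36). With the replicate block, LR against DTEP had 0 lower members in place of 1, and the other counts were 26 and 4, 11 and 20, 18 and 8, and 19 and 7 in the order above. Log2 changes of single genes were followed through each left-out library only for the genes described in full, in their comparisons, and for TFEB, TFE3 and MITF. Of these changes, 3 turned sign: TFE3 in DTEP against DTP ranged from -0.18 to 0.072 (positive without DTEP replicate 3), MITF in LR against DTEP from -0.69 to 0.012 (positive without LR replicate 2), and MITF in LR against Control from -0.31 to 0.39 (negative without LR replicate 3). None of the 3 passed the test with all libraries. Changes of other members near 0 could turn sign as well. Without DTEP replicate 3, SGSH went from 0.16 to -0.19 in DTEP against DTP, and GAA from 0.031 to -0.17. With library totals as the scale, the all-gene median in DTEP against DTP shifted by -0.11. The 3 libraries a group limit the spread that could be measured.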
